A study of Mus musculus with 24 samples.

Results

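Gm8300, Gm4027, BB287469, Gm2016, Gm2022, Gm5662 and Gm5039 are 7 mouse genes that resemble Eif1a and lie together on chromosome 12. They were taken as the rows whose Ensembl gene IDs carry these symbols in the GENCODE M21 annotation, which gave 7 of 55487 gene rows. Each of the 7 had a row in all 24 count tables, and all 7 passed the filter on low counts in both sets of libraries fitted here.

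Eif1a and its relative Eif1ax encode eIF1A, a translation initiation factor that binds the small ribosomal subunit and takes part in scanning and in the choice of the start codon. The copies on chromosome 12 are known as genes of the 2-cell mouse embryo, where they are transcribed when the zygotic genome is first activated, and of the rare 2-cell-like cells in embryonic stem cell cultures. DUX, a transcription factor with a double homeodomain, is known to switch on many genes of that stage, among them the Zscan4 genes and the MERVL retroviral repeats. DUXBL is a related double homeodomain protein. TRIM24 and TRIM33 are chromatin-bound proteins of the TRIM family.

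The series holds 24 RNA-seq libraries of KH2 cells, a mouse embryonic stem cell line. Per the titles, every line carried a DUX transgene behind a tetracycline-responsive element (TRE), and each was sampled without doxycycline (DOX), which drives such an element, and after 16 h with it, in 2 libraries per group. Of 6 lines, the wild type (WT) and the DUXBL knockout (DUXBL-KO) formed an 8-library set, and 2 further WT lines (line 1 and line 2), the TRIM24 knockout (TRIM24-KO) and the TRIM33 knockout (TRIM33-KO) formed a 16-library set whose titles also carry the name pLV2, which the labels do not explain. Each knockout is represented by 1 line. Cells were kept in serum and LIF on gelatin or on growth-arrested mouse embryonic fibroblasts, and the labels do not say which library had which. Nothing in the labels says that the 2 libraries of a group came from separate cultures, so p-values measure only the spread between these libraries, which may be technical.

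Gene counts per library ranged from 11784696 to 19136869. The native Dux row, Duxf3, had 0 to 2 counts in the libraries without DOX and 20 to 110 with it. Trim33 was lower in TRIM33-KO than in the pLV2 WT lines by a log2 fold change of -2.57 without DOX and -2.61 with it. Trim24 did not differ by the test in the libraries labelled TRIM24-KO (0.01 without and -0.17 with DOX), nor did Duxbl1 in those labelled DUXBL-KO (-0.82 and 0.46), so directions drawn from these labels rest on the labels alone. For Trim24 the reference was the mean of both pLV2 WT lines, which themselves differed in this gene. Its values against each line alone are not given here. Pluripotency markers summed to 5396 to 7121 CPM (counts scaled to 1000000 per library) without DOX and 4655 to 6943 with it. Their sum was lower with DOX, without overlap of the libraries, in TRIM24-KO (0.932 times), line 2 (0.882 times) and TRIM33-KO (0.844 times), and the libraries overlapped in the other 3 lines. Of its 12 markers, edgeR called 3 higher and 3 lower with DOX in line 1, 1 higher and 5 lower in TRIM24-KO, 1 higher and 6 lower in line 2 and in TRIM33-KO, and 0 in WT and DUXBL-KO. A single row, CT010467.1, held 30.4% of the gene counts of TRIM24-KO replicate 2 with DOX and 12.9% of those of TRIM33-KO replicate 2 with DOX; without the row of that gene, and without either library, the 7 genes kept the calls given below for these lines. In these bulk libraries, more cells that express a gene and more RNA of it per cell cannot be told apart.

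The 7 genes spanned 809.7 kb of chromosome 12 in GRCm38, the build named mm10 in the submitters' processing notes. All are annotated as protein coding. From the proximal end, Gm8300 (ENSMUSG00000079034.2) lay at 87514316 to 87518266, Gm4027 (ENSMUSG00000092019.4) at 87618869 to 87622955, and BB287469 (ENSMUSG00000079031.1) at 87816577 to 87820676. Gm2016 (ENSMUSG00000072905.5) lay at 87874072 to 87877859 and Gm2022 (ENSMUSG00000113971.1) at 87895370 to 87895804, and these 5 are on the plus strand. Gm5662 (ENSMUSG00000079029.2) at 88270640 to 88274500 and Gm5039 (ENSMUSG00000093847.2) at 88320122 to 88324026 are on the minus strand. The annotated transcripts of 6 of the genes have 2 exons and 1766 to 1873 bases. Gm2022 is annotated with its coding part alone, 435 bases in 1 exon, so its reads outside that part are not counted for it.

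All 7 coding sequences are 435 bases long and differ at 22 positions in all. Their pairwise identity ran from 97.01% to 100% (median 97.7%, 21 pairs), with Gm4027 and BB287469 identical. Identity to the coding sequence of Eif1a was 93.56% to 94.94%, and to Eif1ax 83.68% to 85.06%. Bases 340 to 429 of the coding sequence, which hold 9 of the 22 variable positions, are shown from the GENCODE M21 transcripts because they let the copies be told apart by eye. Capitals mark bases that differ from the base most of the 7 genes carry at that position, and BB287469 reads as Gm4027 here.
Gm8300: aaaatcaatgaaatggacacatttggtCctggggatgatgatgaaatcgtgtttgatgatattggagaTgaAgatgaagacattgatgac
Gm4027: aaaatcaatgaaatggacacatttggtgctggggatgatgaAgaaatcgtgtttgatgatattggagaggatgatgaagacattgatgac
Gm2016: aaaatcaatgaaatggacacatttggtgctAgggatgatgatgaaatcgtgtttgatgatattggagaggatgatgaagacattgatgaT
Gm2022: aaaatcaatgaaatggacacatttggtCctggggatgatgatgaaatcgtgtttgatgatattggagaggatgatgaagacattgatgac
Gm5662: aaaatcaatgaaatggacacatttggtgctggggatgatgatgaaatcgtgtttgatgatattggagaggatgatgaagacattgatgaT
Gm5039: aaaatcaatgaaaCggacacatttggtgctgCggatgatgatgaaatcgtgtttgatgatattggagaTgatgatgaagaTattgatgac
Eif1ax: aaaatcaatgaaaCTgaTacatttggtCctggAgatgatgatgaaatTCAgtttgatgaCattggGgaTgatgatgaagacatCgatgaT
Within these 90 bases a member differed from the majority at 1 to 4 positions, and Eif1ax at 13. Over the whole coding sequence, Gm2016 was closest to the majority with 3 differences, and Gm5039 farthest with 8.

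So close a likeness bears on how reads can be assigned, since the reads were 75 bases long and the authors' treatment of reads that match several places is not given in the sources used here. Of all 75-base windows of its annotated transcript, 92.31% were found in no other annotated transcript for Gm5039 and 83.38% for Gm8300. The share was 32.96% for Gm5662, 26.42% for Gm2016 and 17.17% for Gm2022. It was 7.09% for Gm4027 and 6.25% for BB287469, so counts of this pair in particular may have been divided between them or dropped. For 5 of the 7 genes at least 1 window was shared with Eif1a, and none was shared with Eif1ax. Values of single members are therefore uncertain where copies are alike, Gm5039 and Gm8300 least so, and the sum over the 7 genes is given beside them.

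RefSeq promoter windows (GRCm38.p6) were at hand for Gm4027 and BB287469. The bases before the BB287469 start, chr12:87816327-87816576 on the plus strand, are shown because these copies, far apart in the cluster, share them where both windows reach.
BB287469 promoter: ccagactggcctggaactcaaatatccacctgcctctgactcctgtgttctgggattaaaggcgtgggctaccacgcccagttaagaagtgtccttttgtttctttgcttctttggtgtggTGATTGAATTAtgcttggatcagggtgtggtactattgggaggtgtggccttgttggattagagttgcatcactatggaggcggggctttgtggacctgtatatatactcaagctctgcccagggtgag
The whole 300-base windows of both genes differed at 1 of 259 aligned bases. The Gm4027 window begins farther in. Its 210 bases before the start, chr12:87618659-87618868 on the plus strand, correspond to the printed stretch from cctgtgttctggg on. The capitals mark TGATTGAATTA, which begins 129 bases before the transcript start of BB287469 and 130 bases before that of Gm4027. Searched on both strands, this string with any base allowed at its sixth position, a pattern chosen after these sequences were seen, occurred in 0.0578% of 32851 RefSeq promoter windows, those of 18 genes with both members among them. Of the 16 other genes, 12 were matched to rows and 4 or 5 passed the count filter. Of these, Gm21319 rose in every line, and it is itself a copy in the same cluster. The DUX motif listed for the search, which differs from that pattern by 1 base, occurred in neither window and in 0.0335% of all, and TATAAA in neither window and in 13.6% of all. TATAAA was searched as an exact string, so other forms of a TATA box were not covered. The printed stretch holds tatatata near its end.

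DOX raised all 7 genes in all 6 lines, from at most 19 counts in a library to 228 or more. Without DOX, 19 of 84 values (7 genes in 12 libraries) were 0 and the highest was 19 counts, of Gm5662 in TRIM33-KO replicate 1. With DOX the values ran from 228 counts, of Gm2022 in WT replicate 2, to 16553, of Gm5662 in TRIM33-KO replicate 1. No library without DOX reached a library with DOX for any of the genes. Within a line, libraries with and without DOX did not overlap for 41.3% of all genes in WT to 69.7% in TRIM33-KO, in either direction. The genes passed the count filter through the libraries with DOX, so their all being called is partly set by that filter.

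Markers of fibroblasts, the feeder cells, also moved with DOX. Over 15 markers the sum was 34.2 to 62.7 CPM without and 40.8 to 71.3 with DOX, and within each of the 6 lines both libraries with DOX lay above both without, by 1.15 times in line 2 to 1.34 times in line 1. Of the 7 markers that could be tested, edgeR called 0 in WT and DUXBL-KO, and 2 or 3 higher in each pLV2 line, among Col1a1, Col1a2, Fbn1 and Thy1, with 1 lower, Pdgfrb, in line 2 and in TRIM33-KO. Postn, Lum and Fap each had 0 counts in 23 of the 24 libraries, while Col1a1, Col5a1, Thy1, Fbn1, Pdgfra and Pdgfrb had counts in all 24, Col5a1 at 10.1 to 27.5 CPM. The part of feeder cells, and of the pluripotency sums given above, in the rise of the 7 genes was not tested.

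**Figure D1:**
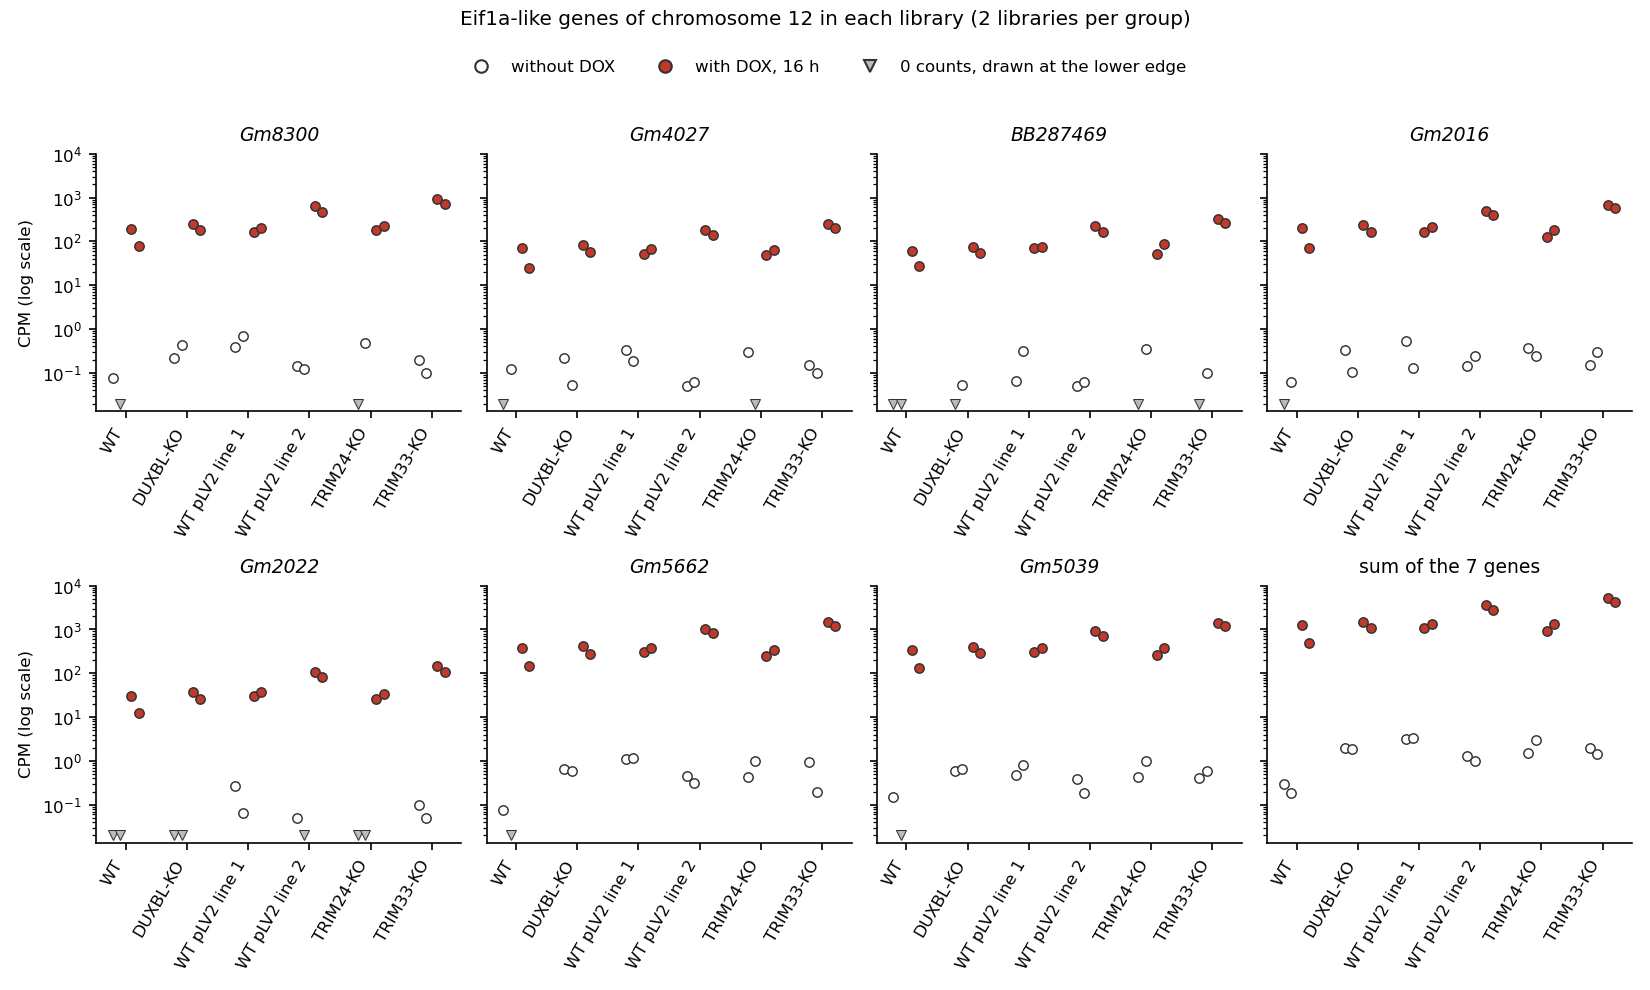
Level in CPM (log scale) of each of the 7 genes, and of their sum, in each of 24 libraries; open circles are libraries without DOX, filled circles libraries after 16 h of DOX, and grey triangles libraries with 0 counts drawn at the lower edge. Within every line the libraries with and without DOX are far apart, and line 2 and TRIM33-KO sit highest with DOX.

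Called means an adjusted p under 0.05 in edgeR's quasi-likelihood test with Benjamini-Hochberg adjustment over all genes tested. In WT all 7 rose, where 2.95% of all genes did. Adjusted p ran from 0.00183 for Gm5662 to 0.00834 for Gm2022. All 7 rose in DUXBL-KO beside 4.55% of all genes, with adjusted p from 9.87e-04 for Gm5662 to 0.00334 for Gm2022. In line 1 it was 7 of 7 beside 10.5%, with adjusted p from 1.52e-12 for Gm5039 to 2.38e-10 for Gm2022. In line 2 it was 7 of 7 beside 12.6%, from 7.99e-14 for Gm2016 to 2.79e-12 for BB287469. In TRIM24-KO it was 7 of 7 beside 10.2%, from 8.43e-13 for Gm5039 to 1.60e-10 for BB287469. In TRIM33-KO it was 7 of 7 beside 15.0%, from 2.93e-14 for Gm2016 to 6.26e-13 for BB287469. Without WT replicate 2 without DOX, 5 of 7 were called in WT, with Gm2022 at an adjusted p of 0.0595 and Gm4027 at 0.0503 in edgeR. With only the WT libraries fitted, 6 of 7 were called, with Gm2022 at an adjusted p of 0.0513.

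Summed over the 7 genes, WT had 4 and 3 counts without DOX and 20757 and 8957 with it. DUXBL-KO had 37 and 35 without and 22993 and 19215 with DOX. Line 1 had 48 and 53 without and 14273 and 17584 with DOX. In these lines every library with DOX held far more counts of the 7 genes than any library without. TRIM24-KO had 25 and 52 without and 11405 and 10671 with DOX. Line 2 had 26 and 16 without and 47395 and 37123 with DOX, and TRIM33-KO 39 and 29 without and 58378 and 39960 with DOX. In the TRIM33-KO libraries with DOX the 7 genes took 0.488% and 0.339% of all gene counts.

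As ratios of pooled counts scaled by library size, the sum rose 3619-fold in WT (95% counting interval 1756 to 9003) and 653-fold in DUXBL-KO (519 to 835). It rose 369-fold in line 1 (303 to 453), 475-fold in TRIM24-KO (379.96 to 602), 2811-fold in line 2 (2079.7 to 3901) and 2816-fold in TRIM33-KO (2221 to 3627). These intervals cover counting error only and leave out the spread between libraries. The folds rest on few counts without DOX, so their order across lines follows the low values as much as the high ones. For genes with no count in a group without DOX, only a lower bound against 3 counts over the group can be given. In WT this bound put BB287469 at least 419-fold and Gm2022 at least 209-fold above the libraries without DOX. For Gm2022 it was at least 387-fold in DUXBL-KO and at least 328-fold in TRIM24-KO.

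Gm5662 and Gm5039, the neighbouring pair on the minus strand, had the highest counts of the 7 in every library with DOX. Gm5662 reached 374 and 149 CPM in WT, 422 and 282 in DUXBL-KO, and 309 and 373 in line 1. It reached 254 and 347 CPM in TRIM24-KO, 1044 and 832 in line 2, and 1475 and 1178 in TRIM33-KO. By mean CPM with DOX it ranked 60 of 18079 tested genes in TRIM33-KO, 75 in line 2, 369 in line 1 and 457 in TRIM24-KO, and 658 of 18060 in WT and 465 in DUXBL-KO. Its highest level without DOX was 1.14 CPM. Gm2022, at the low end, ranked 1403 in TRIM33-KO, 1940 in line 2, 5019 in line 1, 5497 in TRIM24-KO, 5828 in DUXBL-KO and 7129 in WT.

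Gm5039, the member whose reads are most nearly its own, followed the same order of lines. It had 333 and 131 CPM in WT, 406 and 296 in DUXBL-KO, and 298 and 371 in line 1. It had 260 and 386 CPM in TRIM24-KO, 934 and 712 in line 2, and 1397 and 1184 in TRIM33-KO. The libraries of line 2 and TRIM33-KO lay above all the others, and those of the other 4 lines overlapped.

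Gm8300 and Gm2016 formed a middle pair. With DOX, Gm8300 had 189 and 78.4 CPM in WT against 249 and 180.0 in DUXBL-KO. Its pLV2 values were 167 and 198 CPM in line 1, 648 and 467 in line 2, 179 and 225 for TRIM24-KO, and 944 and 723 for TRIM33-KO. Gm2016 had 199 and 70.9 CPM in WT against 232 and 161 in DUXBL-KO, then 160 and 210.3 in line 1, 488 and 404 in line 2, 125 and 182 for TRIM24-KO, and 673 and 570 for TRIM33-KO. Both were highest in TRIM33-KO and next in line 2, with no overlap between those libraries and the rest.

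BB287469, Gm4027 and Gm2022 were the low members in CPM. With DOX, BB287469 had 59.6 and 27.0 CPM in WT against 74.1 and 55.8 in DUXBL-KO, then 70.6 and 74.9 in line 1, 228 and 163 in line 2, 51.1 and 87.4 for TRIM24-KO, and 318 and 259 for TRIM33-KO. Gm4027 had 70.9 and 24.2 CPM in WT against 82.1 and 58.9 in DUXBL-KO, then 51.5 and 67.7 in line 1, 182 and 144 in line 2, 49.0 and 63.5 for TRIM24-KO, and 251 and 200 for TRIM33-KO. For this pair of like coding sequence, BB287469 exceeded Gm4027 in every pLV2 library with DOX and fell below it in 3 of the 4 libraries of WT and DUXBL-KO. Gm2022, counted over its coding part alone, ranged with DOX from 12.5 CPM in WT replicate 2 to 145 CPM in TRIM33-KO replicate 1.

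Per kilobase of annotated transcript, Gm5662 and Gm5039 stood highest and the pair BB287469 and Gm4027 lowest with DOX. Scaling by length leaves out how reads of like copies were assigned. The lowest pair also had the fewest windows found in no other transcript (6.25% for BB287469 and 7.09% for Gm4027). The part of read assignment in this order was not tested. In TRIM33-KO, Gm5662 stood at 721 ± 114 CPM per kb (SD, n = 2) and Gm5039 at 695 ± 81.3, a gap smaller than either SD. Gm8300 followed at 445 ± 83.4, Gm2016 at 352 ± 41.2 and Gm2022 at 291 ± 59.8, and the gap between Gm2016 and Gm2022 was about as large as the spread. BB287469 at 156 ± 22.8 and Gm4027 at 122 ± 19.6 CPM per kb were lowest. In WT the same quantities were 142 ± 86.5 for Gm5662, 125 ± 77.1 for Gm5039, 76.4 ± 51.3 for Gm2016, 71.4 ± 41.7 for Gm8300 and 49.7 ± 29.5 for Gm2022. Gm4027 stood at 25.7 ± 17.9 and BB287469 at 23.4 ± 12.5 CPM per kb. In WT, where replicate 2 was lower than replicate 1 for every member, the SD of the higher gene exceeded each step between neighbours in this order. These SDs are between libraries in which the genes moved together, so they do not measure the spread of a difference between genes. Both TRIM33-KO libraries held the order given for that line. WT replicate 1 held the WT order, and in replicate 2 only Gm2016 with Gm8300, and Gm4027 with BB287469, changed places.

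The makeup of the sum hardly varied. Over the 12 libraries with DOX, Gm5662 took 26.2% to 30.2% of the counts of the 7 genes (median 28.2%) and Gm5039 25.4% to 29.1% (median 27.2%). Gm8300 took 14.9% to 18.9% (median 16.8%) and Gm2016 12.9% to 15.8% (median 14.4%). BB287469 took 4.74% to 6.59% (median 5.71%), Gm4027 4.73% to 5.65% (median 5.05%) and Gm2022 2.44% to 2.94% (median 2.67%). The sum itself ranged from 493 to 5204 CPM over the same libraries, so shares stayed within a few percentage points across this range of totals. The ratio of Gm8300 to Gm2016 counts was 0.942 to 1.12 in the libraries of WT, DUXBL-KO and line 1, and 1.16 to 1.43 in those of line 2, TRIM24-KO and TRIM33-KO. This split was noticed after the values were seen and was not tested. Pearson's r between the log2(CPM + 1) values of member pairs was 0.978 to 0.997 over these 12 libraries, which share lines, scaling and, for like copies, possibly reads.

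**Figure D2:**
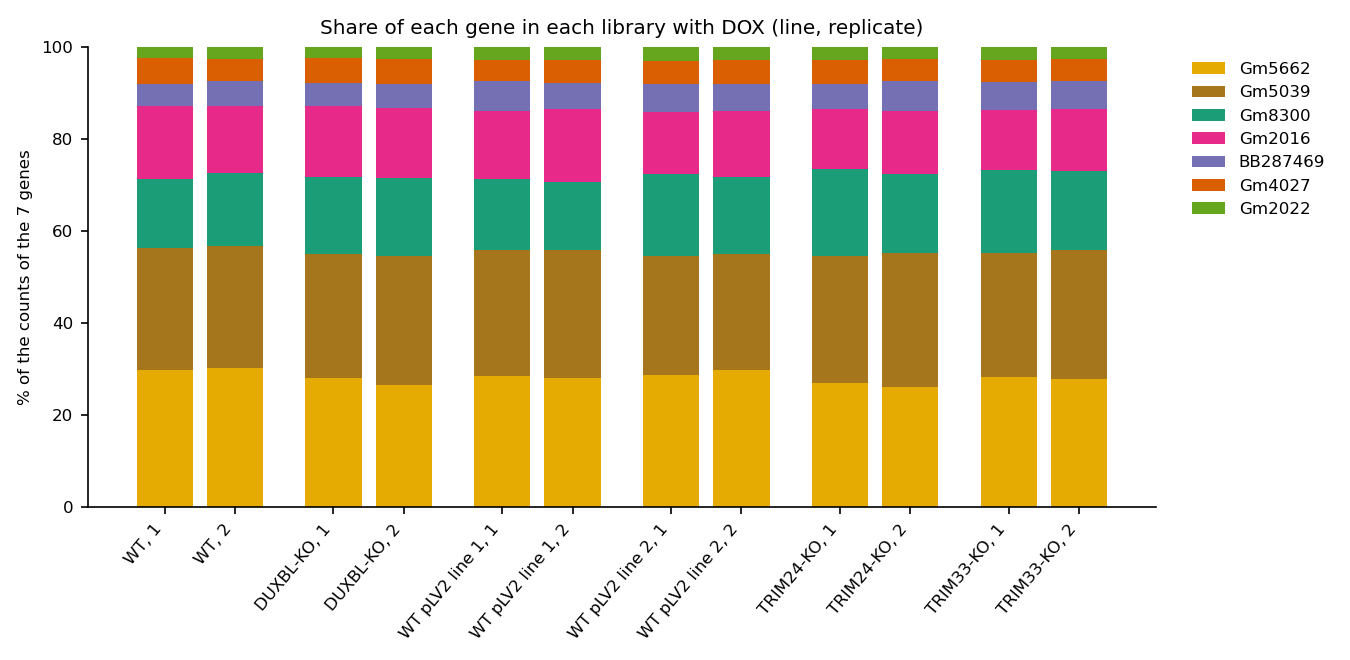
Percentage of the summed counts of the 7 genes taken by each, stacked to 100%, in each of the 12 libraries with DOX (line and replicate on the x axis). Gm5662 (26.2% to 30.2%) and Gm5039 (25.4% to 29.1%) take the largest shares in each library, and the bars differ little from line to line.

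The lines differed in the level the genes reached. With DOX the sum of the 7 genes was 874.5 ± 540 CPM in WT (SD, n = 2), 1281 ± 312 in DUXBL-KO, 1209 ± 174 in line 1, 1135 ± 270 in TRIM24-KO, 3217 ± 585 in line 2 and 4713 ± 694 in TRIM33-KO. The plain and the pLV2 sets were scaled apart, so levels should be set across them with caution. Within the pLV2 set, TRIM24-KO and line 1 did not differ beyond their spread, and line 2 and TRIM33-KO stood above both.

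DUXBL-KO and WT were compared with DOX to see whether the response differs in the libraries labelled DUXBL-KO. All 7 genes had higher means in DUXBL-KO, with log2 fold changes from 0.43 ± 0.39 (SE) for Gm5662 to 0.68 ± 0.38 for Gm8300, but the libraries overlapped for each gene. None of the 7 was called by edgeR, where 0.0775% of all genes were called in either direction. Adjusted p ran from 0.601 for Gm8300 to 0.762 for Gm5662, and 0 of 7 had an unadjusted p under 0.05. DESeq2 called none of the 7 either. With no filter on low counts, edgeR called 3 of 7, Gm8300 (adjusted p 0.00125), Gm5039 (0.00456) and Gm2016 (0.0286). The estimates rested on which WT library was used. Without WT replicate 2 with DOX, the library with the lower values, those for Gm2016, Gm4027 and Gm5662 fell slightly below 0, and without WT replicate 1 with DOX the 7 ran from 1.24 for Gm5662 to 1.54 for Gm4027, with none called.

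TRIM24-KO was compared with the mean of both pLV2 WT lines, since the labels do not pair it with either. All 7 genes were lower in TRIM24-KO with DOX, where 19.0% of all genes were lower. Log2 fold changes ran from -0.66 ± 0.16 (SE; adjusted p 0.00269, edgeR) for Gm8300 to -0.91 ± 0.14 (adjusted p 7.68e-05) for Gm2016 and -0.91 ± 0.16 for Gm5662. This difference rested on line 2. Against line 1 alone none of the 7 was called, where 15.0% of all genes were lower and 17.1% higher. Their log2 fold changes ran from -0.28 for Gm2016 to 0.14 for Gm8300, with adjusted p from 0.203 to 0.850 (edgeR). Against line 2 alone all 7 were lower, beside 23.2% of all genes, by -1.35 for Gm5039 to -1.65 for Gm2022. Without TRIM24-KO replicate 1 with DOX, 5 of 7 were called, BB287469 and Gm8300 being lost. Gm8300 was also lost in a fit of all 24 libraries (-0.68, adjusted p 0.0582).

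TRIM33-KO was compared with the same 4 WT libraries, which the comparison of TRIM24-KO shares. All 7 genes were higher in TRIM33-KO with DOX, beside 13.8% of all genes, and the groups did not overlap, as for 12.9% of all genes in that direction. Log2 fold changes ran from 1.11 ± 0.13 (SE; adjusted p 1.26e-05, edgeR) for Gm2016 to 1.39 ± 0.14 (adjusted p 4.11e-06) for Gm8300. Here too the reference mattered. Against line 1 alone the 7 genes were higher by 1.74 for Gm2016 to 2.19 for Gm8300, and all were called, beside 20.5% of all genes called higher. Against line 2 alone they were higher by 0.43 for Gm2022 to 0.65 for Gm5039, where 2.18% of all genes were called higher. Gm5039 was the only one of the 7 called, at an adjusted p of 0.0492 (edgeR), the others lying between 0.0789 for Gm8300 and 0.173 for Gm2022.

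The WT lines themselves differed by as much as either knockout did from their mean. With DOX all 7 genes were higher in line 2 than in line 1, beside 19.7% of all genes, by log2 fold changes from 1.27 ± 0.16 (SE; adjusted p 1.10e-05, edgeR) for Gm2016 to 1.61 ± 0.18 (adjusted p 2.79e-06) for Gm8300. The libraries of the 2 lines did not overlap for any of the 7, as for 34.3% of all genes in that direction. Duxf3 went the other way, at -0.88 (adjusted p 0.00868), with 58 and 53 counts in line 2 and 95 and 110 in line 1. Trim24 was higher in line 2 by 0.93 without and 0.95 with DOX.

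**Figure D3:**
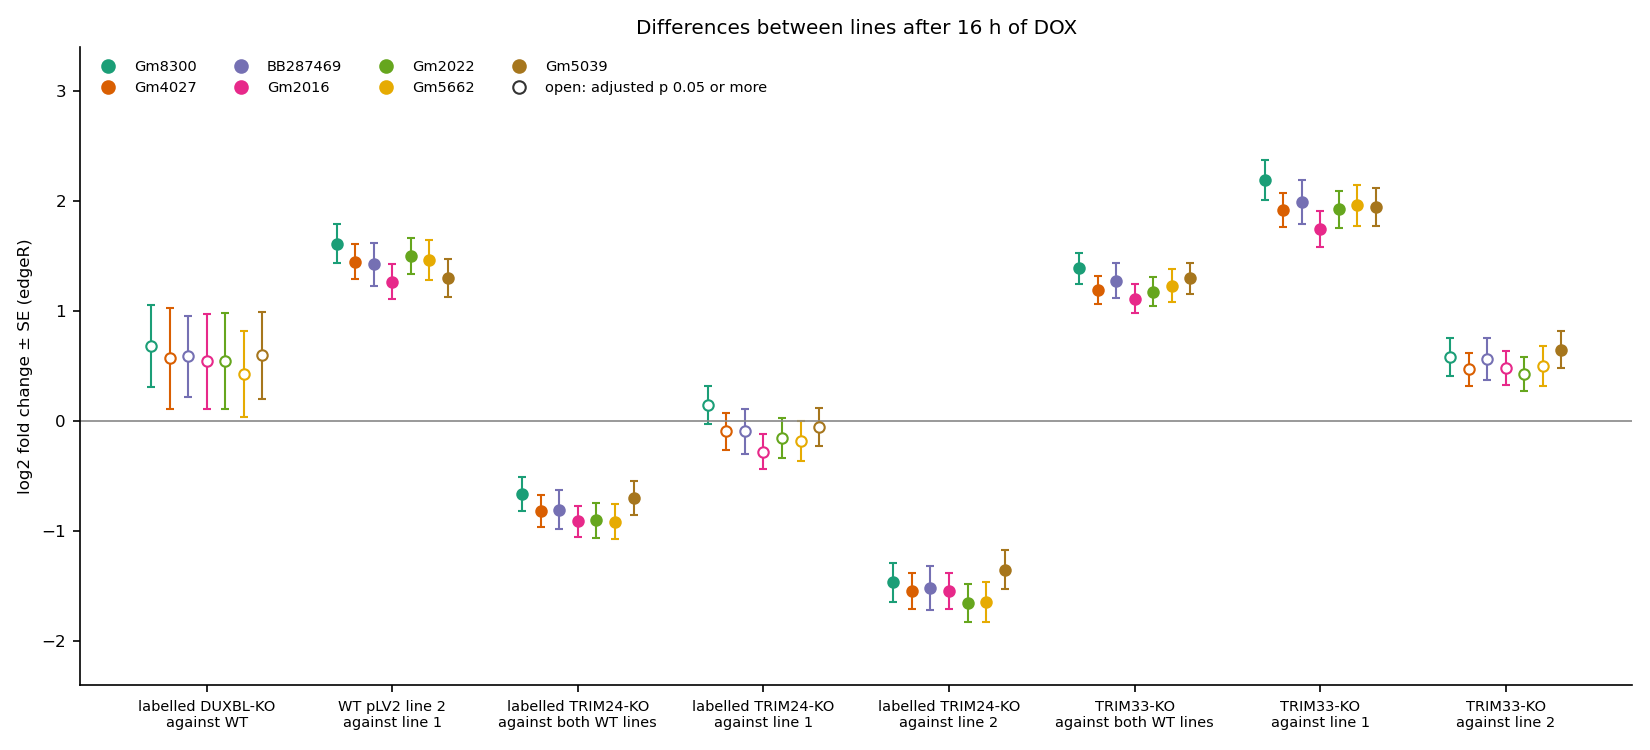
Log2 fold change between lines after 16 h of DOX for each of the 7 genes, with the standard error from edgeR as bars; filled points have an adjusted p under 0.05 and open points do not. DUXBL-KO is drawn against WT and line 2 against line 1, while TRIM24-KO and TRIM33-KO are drawn against the mean of both pLV2 WT lines and against each line alone, where the position of the 7 points shifts together with the reference.

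Without DOX no member was called between lines, at counts of 0 to 19. DUXBL-KO against WT gave 0 of 7 by edgeR (0.0388% of all genes called in either direction), TRIM24-KO against the pLV2 WT lines 0 of 7 (42.1%), and TRIM33-KO against them 0 of 7 (23.3%), each with 0 of 7 at an unadjusted p under 0.05 and 0 of 7 by DESeq2. Line 2 against line 1 gave 0 of 7 (37.6%), with 1 at an unadjusted p under 0.05, Gm5662 at -1.56 ± 0.63 (adjusted p 0.0626, edgeR), and 2 called by DESeq2. All 7 were lower in line 2 than in line 1 without DOX, and for 6 of 7, all but Gm2016, the libraries did not overlap, as for 32.7% of all genes in that direction. In DUXBL-KO without DOX, 6 of 7 estimates were above those of WT (median log2 fold change 2.43), with summed counts of 37 and 35 against 4 and 3. The libraries did not overlap for 4 of 7, Gm2016, Gm5662, Gm8300 and Gm5039, as for 18.6% of all genes in that direction, and with no filter on low counts 2 of the 7 were called.

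The test of whether the DOX effect itself differed between lines called none of the 7 by edgeR in any of 4 comparisons. For DUXBL-KO against WT, 0 had an unadjusted p under 0.05 (0% of all genes called). For TRIM24-KO against the pLV2 WT lines it was 1, Gm5039 at -1.40 ± 0.59 (SE; 0.249% of all genes called). For TRIM33-KO it was 2, Gm5662 at 1.43 ± 0.57 and Gm8300 at 2.24 ± 1.00 (0.514%). DESeq2 called 0 of 7 in these 3 comparisons. For line 2 against line 1 it was 5 (0.254%), with Gm5662 closest at 3.02 ± 0.65 (adjusted p 0.0798, edgeR), and DESeq2 called 3. With 0 to 19 counts without DOX, these differences of differences had wide errors.

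The 7 genes are part of a larger array. By coding sequence, 14 further annotated genes matched a member at 80% identity or more over at least 80% of its length, 11 of them in the cluster or beside it. Of the 11, 9 lie between the outermost of the 7 genes, and 2, Gm5788 and Gm10264, lie at either side within 19.2 kb. Of these 11, 10 exceeded 10 counts in some library: Gm8332, Gm2035, Gm2075, Gm6803, Gm2056, Gm21936, Gm5788, Gm8607, Gm16368 and Gm21319. Gm8332, 99.54% identical to Gm8300 over its coding part, was the highest, with 547 to 4077 counts with DOX (median 1370.5) and at most 8 without. Gm21319 came next with 367 to 1820 (median 811.5), and Gm10264, annotated as a pseudogene, had 0 counts without DOX and 2 to 10 with it. With DOX all the tested copies rose in WT (10 of 10, beside 2.95% of all genes) and DUXBL-KO (10 of 10, beside 4.55%). It was 11 of 11 in line 1 (10.5%), line 2 (12.6%) and TRIM33-KO (15.0%), and 10 of 11 in TRIM24-KO (10.2%). Like the members, the copies passed the count filter through the libraries with DOX, so their being called is partly set by that filter. Reads may be shared between these copies and the members, so the copies do not count as separate evidence.

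Their order of lines resembled that of the members. Summed, the 11 copies had at most 1.01 CPM without DOX. With DOX they had 303 and 120 CPM in WT against 396 and 259 in DUXBL-KO, then 260 and 313 in line 1, 841 and 652 in line 2, 233 and 308 for TRIM24-KO, and 1186 and 915 for TRIM33-KO. With DOX, 7 of 11 were lower in TRIM24-KO than the pLV2 WT lines (19.0% of all genes), 10 of 11 higher in TRIM33-KO (13.8%), and 10 of 11 higher in line 2 than in line 1 (19.7%). As with the members, the reference decided the count. Against line 1 alone, 1 was lower and 1 higher in TRIM24-KO (15.0% and 17.1% of all genes) and 10 were higher in TRIM33-KO (20.5%). Against line 2 alone, 10 were lower in TRIM24-KO (23.2%) and 0 were called in TRIM33-KO (2.18% of all genes higher). Between DUXBL-KO and WT 0 of 10 were called. Gm13368, a pseudogene on chromosome 2 and the copy outside the cluster besides Eif1a and Eif1ax, was at 0 in all libraries.

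Eif1a and Eif1ax, the genes the array resembles, were called higher by edgeR in no line. Per kilobase, Eif1a stood at 83.3 and 76.3 CPM with DOX and 78.5 and 73.5 without in WT, and at 40.2 and 36.5 with DOX and 51.3 and 49.9 without in TRIM33-KO. By edgeR it fell with DOX in line 2 (log2 fold change -0.31 ± 0.06, adjusted p 0.00162, and up to 0.0411 over the alternatives) and in TRIM33-KO (-0.40 ± 0.06, adjusted p 1.25e-04, up to 0.00442). It was not called in WT (0.07), DUXBL-KO (-0.01), line 1 (-0.18, adjusted p 0.0725) or TRIM24-KO (-0.16, adjusted p 0.103). Over the alternatives the adjusted p in line 1 went from 0.00336 to 0.344, so it was called lower there under some, and in TRIM24-KO it went no lower than 0.0627. Eif1ax was called in no line, with log2 fold changes between -0.13 and 0.16.

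Set beside them per kilobase, the sum of the 7 genes went from at most 4.05% of the Eif1a level without DOX to 3.80 to 76.6 times that level with DOX. Against Eif1ax it was 10.01 to 152 times with DOX. In WT with DOX, Gm5662 and Gm5039 alone had means above that of Eif1a (79.8 CPM per kb), while in TRIM33-KO each of the 7 did (Eif1a 38.4 CPM per kb). As 5 of the 7 genes share short windows with Eif1a, some reads of the array may be counted for it, or the reverse. How much was not tested.

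**Figure D4:**
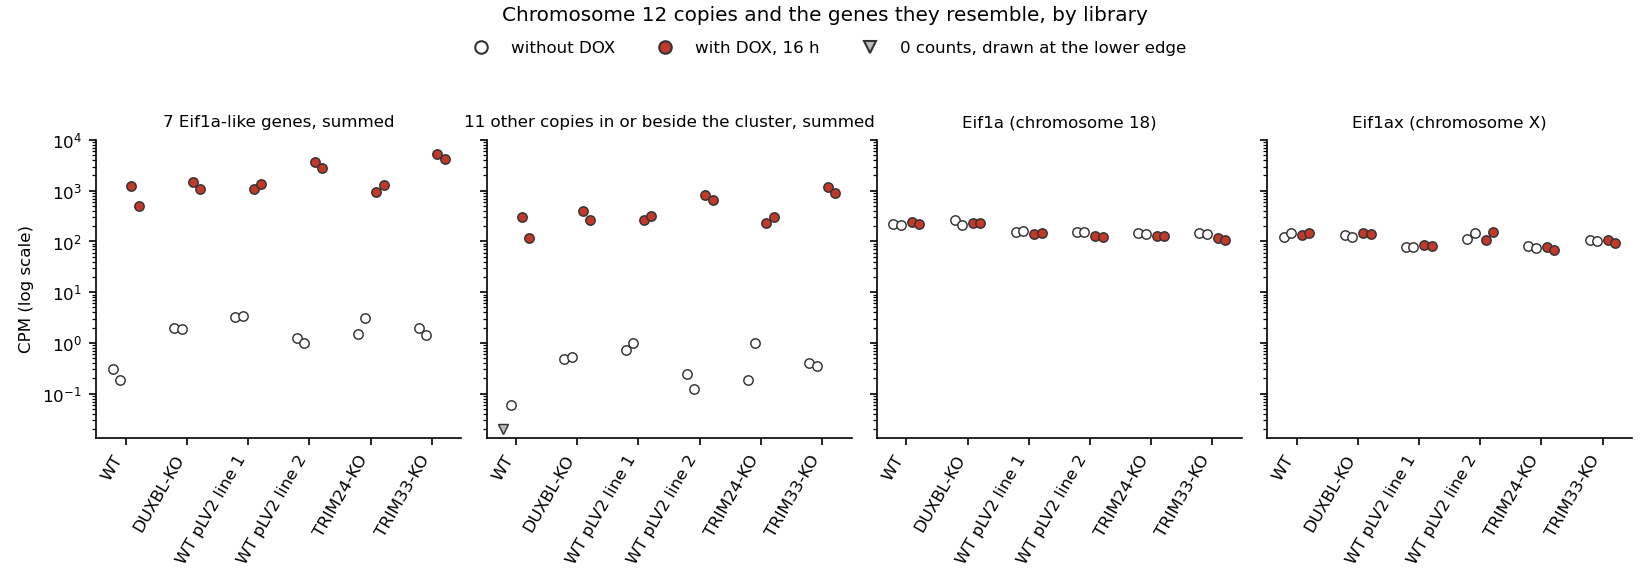
Level in CPM (log scale) in each library for the summed 7 genes, the summed 11 further copies in or beside the cluster, Eif1a and Eif1ax, by line; open circles are without DOX, filled circles after 16 h of DOX, and grey triangles are libraries at 0 drawn at the lower edge. The 7 genes move from 0.182 to 3.36 CPM without DOX to 493 to 5204 CPM with it, while Eif1a stays between 105 and 261 CPM and Eif1ax between 66.7 and 152 CPM.

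Other translation initiation factors were counted beside the array. Of 49 listed genes, all tested, edgeR called 0 in WT (3 at an unadjusted p under 0.05, 1 by DESeq2) and 0 in DUXBL-KO (7 unadjusted, 1 by DESeq2), where 3.03% and 4.97% of all genes were called in either direction. It called 4 in line 1, all higher (8.16% of the list beside 14.9% of all genes), and 6 higher and 4 lower in line 2 (20.4% beside 25.8%). In TRIM24-KO 5 were higher and 1 lower (12.2% beside 16.7%), and in TRIM33-KO 10 were higher and 7 lower (34.7% beside 37.9%). The list's median log2 fold change lay between 0.03 and 0.13 over the 6 lines. The list's share lay below that of all genes in each of these counts, but not under every alternative. With RLE factors it was 57.1% of the list beside 34.0% of all genes in TRIM33-KO and 28.6% beside 24.1% in line 2, with 24 higher and 4 lower in TRIM33-KO and 13 and 1 in line 2, while line 1 (10.2% beside 15.8%), TRIM24-KO (16.3% beside 16.7%), WT (0% beside 2.95%) and DUXBL-KO (0% beside 4.93%) stayed below. By DESeq2 it was 51.0% beside 27.8% in TRIM33-KO, 32.7% beside 19.5% in line 2 (22 higher and 3 lower, and 14 and 2), and 20.4% beside 13.8% in TRIM24-KO, with line 1 (12.2% beside 12.6%), WT (2.04% beside 4.21%) and DUXBL-KO (2.04% beside 5.70%) below. The counts for the pLV2 lines moved by over 1.5 times when single libraries were left out, to 0 to 2 in line 1, 3 to 6 in line 2, 0 to 5 in TRIM24-KO and 8 to 14 in TRIM33-KO.

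Among the factors that act with eIF1A, Eif1, whose product takes part in start codon choice, was called by edgeR in TRIM33-KO (0.31 ± 0.07, adjusted p 0.00316, up to 0.0607 over the alternatives). In TRIM24-KO it was not called, but its adjusted p fell as low as 0.0403 over the alternatives. Its paralogue Eif1b was called in no line, and Eif1ad, a gene with an eIF1A-like domain, was lower in TRIM33-KO (-0.23, adjusted p 0.0436, up to 0.447 over the alternatives). The edgeR test of whether the DOX effect differs between lines called 0 of the 49 listed factors for DUXBL-KO against WT. It also called 0 for TRIM24-KO and TRIM33-KO against the pLV2 WT lines and for line 2 against line 1. At an unadjusted p under 0.05 there were 0, 0, 7 and 1 factors in these comparisons. Of all genes, 0%, 0.249%, 0.514% and 0.254% were called. No listed factor passed the test with a log2 fold change of 1 or more in more than 1 line. In TRIM33-KO, Eif2s3y (2.21, adjusted p 0.0465, edgeR) and Eif4e3 (-2.01, adjusted p 0.0173) did, both named after their values were seen. Both calls were lost under some alternatives, where the adjusted p reached 0.265 and 0.144. Eif4e3 had 25 and 15 counts there without DOX and 4 and 1 with it. Eif2s3y had 13 and 16 without and 45 and 25 with DOX.

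Genes known from the 2-cell stage rose with the array. Of 21 listed 2-cell markers, 20 rose in WT, 20 in DUXBL-KO and 21 in each pLV2 line, where 2.95% of all genes rose in WT, 4.55% in DUXBL-KO and 10.2% to 15.0% in the pLV2 lines. Of 5 MERVL repeat subfamilies, 3 rose in WT and 5 in each other line, where 9.99% of repeat subfamilies rose in WT, 30.0% in DUXBL-KO, 63.7% in line 1, 72.0% in line 2, 52.2% in TRIM24-KO and 76.3% in TRIM33-KO. The number in WT was 5 without the filter on low counts. The marker list was chosen with results of these libraries known, so its counts describe them and are no separate evidence.

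The genes whose levels over the 12 libraries with DOX were most like the members' mean log2(CPM + 1), out of 11167 genes with a mean of 5 CPM or more, were Zscan4-ps2 (r = 0.995), Pramef17 (0.995), Gm2035 (0.994), Gm8947 (0.993) and Zscan4a (0.993). Gm2035 is one of the copies in the cluster. Zscan4c, a gene for a zinc finger protein of the 2-cell stage, ranked 6 (0.992). Zscan4d ranked 86 (0.957), Tcstv3 149 (0.938) and Zfp352 444 (0.834). For Eif1ax r was -0.08 and for Eif1a -0.64, the latter 0.94 within the 4 libraries of the plain set and -0.72 within the 8 of the pLV2 set. Within these sets r for Eif1ax was -0.59 and 0.62. These values describe 12 libraries from 6 lines that share their scaling, and carry no p.

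Within the pLV2 set, most of the 21 listed 2-cell markers were called in the direction of the members, though for TRIM24-KO this turned with the reference. With DOX, 12 were lower and 4 higher in TRIM24-KO than the pLV2 WT lines (19.0% and 21.3% of all genes). In TRIM33-KO 19 were higher (13.8%), and 18 were higher and 2 lower in line 2 than in line 1 (19.7% and 19.5%). Against line 1 alone, 1 was lower and 7 higher in TRIM24-KO (15.0% and 17.1% of all genes) and 18 were higher in TRIM33-KO (20.5%). Against line 2 alone, 14 were lower and 2 higher in TRIM24-KO (23.2% and 23.5%) and 9 were higher in TRIM33-KO (2.18%). In TRIM33-KO against the pLV2 WT lines with DOX, Zscan4c (1.37), Zscan4d (1.75), Zfp352 (1.38), Tcstv3 (1.37), MERVL-int (1.43), the internal part of the MERVL retrovirus, and MT2_Mm (1.31), its long terminal repeat, were all higher, beside 1.11 to 1.39 for the members. Duxf3 was not called (0.15). Against line 2 alone, MERVL-int (0.67) and MT2_Mm (0.65) were still called and the 4 genes were not, at adjusted p from 0.0522 for Zfp352 to 0.130 for Tcstv3. In line 2 against line 1, Zscan4c (1.52), Zfp352 (1.62), Tcstv3 (1.84) and MERVL-int (1.51) were higher. In TRIM24-KO, Zscan4c (-0.66), Zscan4d (-1.13) and Duxf3 (-0.90) were lower, while Zfp352 was higher (0.68, adjusted p 6.46e-04, edgeR) and Tcstv3 (-0.09), MERVL-int (-0.14) and MT2_Mm (-0.08) were not called. Zscan4c had 327 and 484 CPM in TRIM24-KO, 344 and 414 in line 1 and 1272 and 904 in line 2, so that TRIM24-KO overlapped line 1 and lay below line 2. Zscan4d did the same, and against line 1 alone neither was called (0.10 and -0.04). Duxf3 had 3.15 and 2.98 CPM, below 7.23 and 8.34 in line 1 and 4.44 and 4.002 in line 2, and was called against line 1 alone (-1.34) but not against line 2 alone (-0.46). Zfp352 had 135 and 207 CPM in TRIM24-KO, 51.6 and 69.1 in line 1 and 173 and 198 in line 2, and was higher than line 1 alone (1.49) and not called against line 2 alone (-0.12). Tcstv3, MERVL-int and MT2_Mm were higher in TRIM24-KO than in line 1 alone and lower than in line 2 alone. Between DUXBL-KO and WT none of these was called, Zfp352 at 1.13 (adjusted p 0.458) and MERVL-int at 1.10 (adjusted p 0.200).

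**Figure D5:**
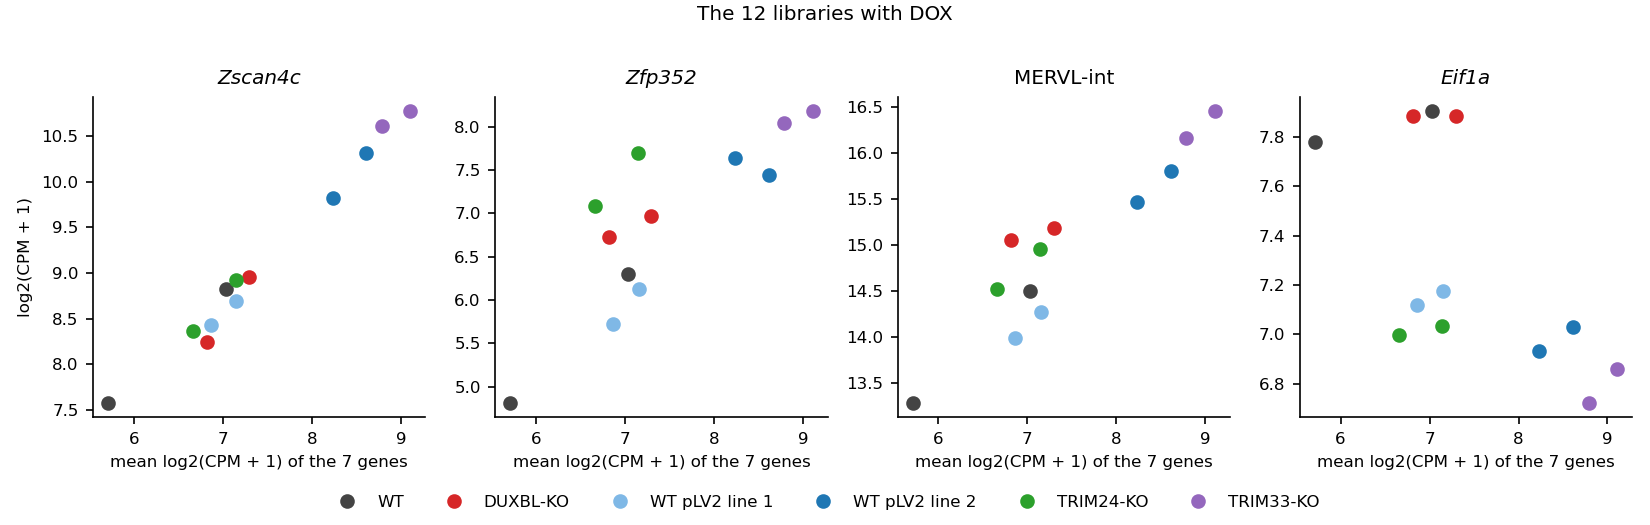
log2(CPM + 1) of other genes and of the MERVL-int repeat against the mean log2(CPM + 1) of the 7 genes, 1 point per library with DOX, coloured by line. Zscan4c lies close to a line (r = 0.992), Zfp352 less so (r = 0.834) with TRIM24-KO highest among libraries of like member level, and Eif1a is higher in the 4 plain libraries than in the 8 pLV2 libraries.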

How the data were processed

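Per the labels' protocols, strand-specific libraries were made after rRNA depletion and sequenced as 75 bp pairs. The authors deposited raw counts, as whole numbers for genes and repeat subfamilies, in 1 table per library, per the file headers. bcl2fastq 2.20.0, cutadapt 1.18, STAR 2.7.6a and mm10 are named per the submitters' processing notes. The counting tool, its strand setting, the annotation and the treatment of reads matching several places are not given in the sources used here. Per-library depth is 11784696 to 19136869 gene counts.

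Groups follow the titles, since for 8 libraries the treatment tag states another DOX status. Of 55487 gene IDs, 54435 matched GENCODE M21 with and 792 without their version. No pair of libraries had identical counts. The 8 plain and 16 pLV2 libraries were fitted apart with edgeR 4.0.16 (R 4.3.3; quasi-likelihood test, TMM factors from gene counts, filterByExpr), which kept 18060 and 18079 genes, and p-values were Benjamini-Hochberg adjusted over all genes (repeats apart), threshold 0.05. The typical variation beyond counting noise, from the common dispersion, was a CV of 17.6% in the plain and 8.79% in the pLV2 set. CPM use effective library sizes. Fold intervals are 95% conditional binomial (Clopper-Pearson) intervals, and bounds use 3 counts over the group. The fitting code was tested on simulated data.

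Named are the 7 genes, Eif1, Eif1b, Eif1ad, Eif1a, Eif1ax, any other listed initiation factor with an absolute log2 fold change of 1 or more past the threshold in 2 lines, Duxf3, 6 other 2-cell genes or repeats, the 5 genes most alike over the libraries with DOX, and related copies over 10 counts. Relatives were to be found by protein. No protein table was used here, so they were found by coding sequence with blastn 2.17.0. The members and lists were chosen with earlier results of these data known. Replicate numbers in the labels mark no shared animal, litter or day, so libraries were not treated as pairs in the main fit. Same-numbered libraries of a line correlated in their deviations at 0.490 in WT and 0.682 in DUXBL-KO. In the pLV2 lines the values were 0.0239 to 0.284, under 0.1 in 2 of them. Alternatives were RLE factors, DESeq2 1.42.0, library sizes with repeats, other filters, other sets of libraries, a fold threshold, a replicate block, each WT reference alone, leaving out CT010467.1 and leaving out each library in turn.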

Additional observations from a re-analysis of the deposited data

How the results depend on the processing

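The direction of the DOX effect on the 7 genes held in all 6 lines under every alternative run, and all 7 were called under each except the omission of 1 WT library given above and, for Gm2022 in WT, the fit of only the compared groups (adjusted p 0.0513). Of the recomputed values of single members for DOX within lines and between lines with DOX (those without DOX and the interactions are given as counts of calls below), 1004 kept direction and call, 25 lost and 3 gained the call, and 4 changed sign. Those were Gm2016 (-0.0195), Gm4027 (-0.00902) and Gm5662 (-0.0890) for DUXBL-KO against WT with DOX, without WT replicate 2 with DOX (highest values with a library left out 1.47, 1.54 and 1.24), and Gm8300 (0.145) for TRIM24-KO against line 1 alone. The cause of these and the changes below was not tested. With DOX, 0 members in TRIM24-KO had a log2 fold change of at least 1, 0 were called against line 1 alone, and 1 was called in TRIM33-KO against line 2 alone. With no filter on low counts, 3 members were called for DUXBL-KO against WT with DOX and 2 without DOX, 1 for the TRIM33-KO interaction, 2 for line 2 against line 1 without DOX and 4 for its interaction, and 5 MERVL subfamilies and 1 initiation factor in WT and 1 in DUXBL-KO. DESeq2 called 2 members for line 2 against line 1 without DOX and 3 for its interaction, and 1, 1, 16 and 10 initiation factors in WT, DUXBL-KO, line 2 and TRIM24-KO. With only the compared groups, 1 member was called for line 2 against line 1 without DOX and 1 for its interaction, and 13, 5 and 3 initiation factors in line 1, line 2 and TRIM24-KO. Against line 1 alone, 2 members were called for the TRIM33-KO interaction. In a fit of all 24 libraries, WT had 5 MERVL subfamilies, and 2, 2, 0, 4 and 0 initiation factors were called in WT, DUXBL-KO, line 1, line 2 and TRIM24-KO. At a log2 fold change of at least 1, DUXBL-KO had 3 MERVL subfamilies, and 0, 0, 0 and 2 initiation factors were called in line 1, line 2, TRIM24-KO and TRIM33-KO. RLE factors gave 28 initiation factors in TRIM33-KO, moved the median of all genes there by 0.11 on the log2 scale, and turned its split of higher and lower genes from 2720 and 4139 to 3456 and 2689 (with repeats in the library sizes, 2503 and 4783), and that of line 2 from 2279 and 2384 to 2585 and 1780. Leaving out each library in turn gave 0 to 2 initiation factors in line 1, 3 to 6 in line 2, 0 to 5 in TRIM24-KO and 8 to 14 in TRIM33-KO, 2 to 4 MERVL subfamilies and 16 to 20 of the 2-cell markers in WT, 5 to 7 members in WT, and 0 to 1 for the interaction of line 2 against line 1 (1 without line 2 replicate 2 with DOX). Where this left 1 library in a group, it was taken to vary like the others. Leaving out any 1 of the 4 libraries moved the initiation factor count by over 1.5 times in line 1 and line 2, and in TRIM24-KO each but replicate 1 with DOX did. With a replicate block, all 7 members were called in each of 6 lines, the other member counts did not change, and initiation factors called were 1 in WT and in DUXBL-KO, 4 in line 1, 11 in line 2, 6 in TRIM24-KO and 17 in TRIM33-KO. Depth limits the values without DOX, where a member had at most 19 counts.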

Other observations

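Eif2s3y, the Y-linked gene for a subunit of initiation factor 2 and a listed initiation factor, differed between lines whether or not DOX was given, and was picked out after its values were seen. It had 26.5 and 46.1 CPM in WT without DOX and 2.87 and 1.91 in DUXBL-KO. In the pLV2 set without DOX, line 1 had 19.5 and 48.9 CPM and line 2 had 29.2 and 44.9. TRIM24-KO had 0.304 and 0.296 CPM, TRIM33-KO 0.653 and 0.785. By edgeR it was lower without DOX in DUXBL-KO than in WT (log2 fold change -3.92, adjusted p 0.0377) and lower than the pLV2 WT lines in TRIM24-KO (-6.85, adjusted p 2.35e-07) and TRIM33-KO (-5.61, adjusted p 1.85e-06). Each knockout line thus stood apart from its WT libraries in this gene, and whether that bears on the Eif1a-like genes was not tested.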
